A study of Mus musculus with 4 samples.

Results

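The outer rim of 4 MC38 tumor sections was compared with the tissue inside it. MC38 is a mouse colon carcinoma line, and its tumors had been sectioned and profiled with Visium, an assay (10x Genomics) whose slides carry a grid of printed spots, each of which tags RNA from overlying tissue with its own barcode. A spot is a small region that can hold several cells of different types, so each value below belongs to a region and not to a cell. Spots were chosen by position alone. For every spot under tissue, the steps on the hexagonal spot grid (6 neighbours a spot) to the nearest position with no tissue were counted, and spots at 3 steps or fewer formed the edge while all others formed the interior. Of 11947 spots, 2761 (23.1%) were edge and 9186 were interior.

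All 4 hosts were female F1 mice aged 8 to 12 weeks with a C57BL/6J parent. The 2 CC075F1 hosts (CC075/UncJ as the other parent, a responder strain in the study) and the 2 CC080F1 hosts (CC080/TauUncJ, a non-responder strain) each carried tumors grown from 500000 MC38 cells injected under the skin. Tumors of 75 to 110 mm3 had been exposed to an isotype antibody, 1 dose of 200 µg per mouse, for 48 hours, so no section came from a tumor under checkpoint blockade. A transplanted line under the skin borders on host dermis, fat and muscle rather than on colon, and each section is 1 cut through 1 tumor. The labels number the sections as replicates, and p-values below measure the spread between these 4 sections.

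The rim of a solid tumor is where cancer cells meet host connective tissue. Fibroblasts there lay down and cross-link a fibrous matrix, vessels enter, and leukocytes arrive from the blood and the surrounding tissue. Away from the rim, oxygen and nutrients usually fall as the distance from perfused vessels grows.

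The edge held 568 of 2710 spots in CC075F1 replicate 1 (21.0%), 665 of 3276 in CC075F1 replicate 2 (20.3%), 880 of 2787 in CC080F1 replicate 1 (31.6%) and 648 of 3174 in CC080F1 replicate 2 (20.4%). CC080F1 replicate 1 stood apart in shape. It was a bent strip of tissue with 11 holes, its deepest spot lay 17 steps inside against 23 to 29 in the other sections, and 151 of its edge spots were edge only because of a hole, against 8 to 26 elsewhere. Between 1 and 75 spots per section lay on the rim of the capture grid, where the tissue ran on beyond the measured area.

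**Figure D1:**
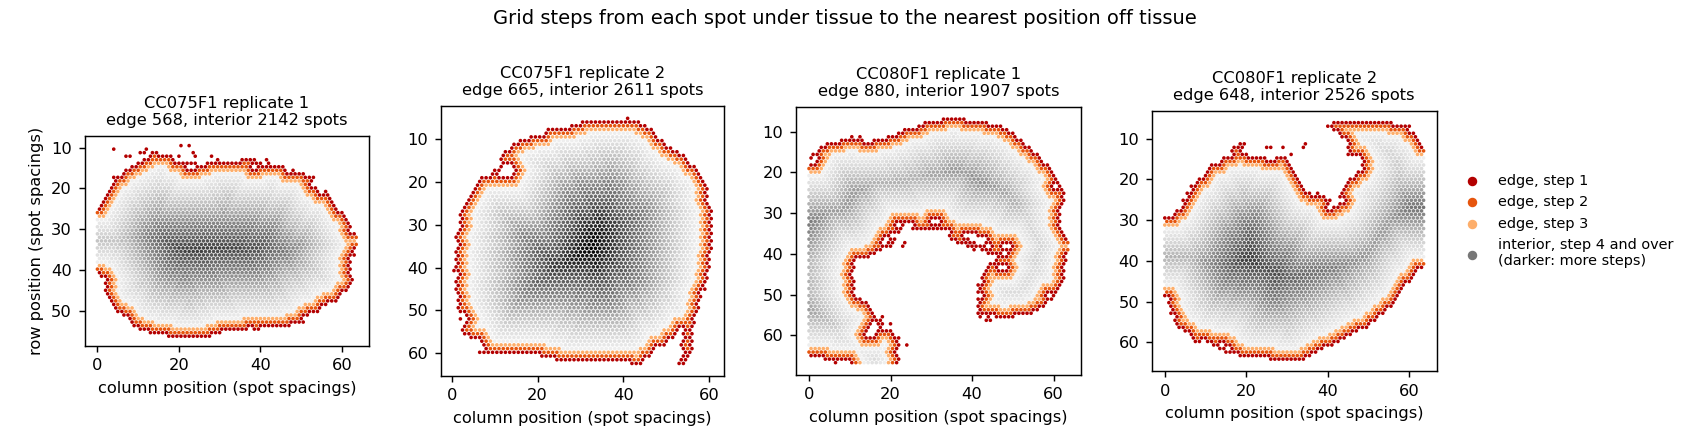
Position of every spot under tissue in the 4 sections, both axes in spot spacings and drawn to scale; red to orange points are edge spots at steps 1 to 3 and grey points are interior spots, darker with more steps. The sections of CC075F1 are compact, CC080F1 replicate 2 has a notch in its upper border, and CC080F1 replicate 1 is a bent strip whose edge takes 31.6% of its spots.

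Edge spots held fewer unique molecular identifiers (UMIs, each marking 1 captured RNA molecule) than interior spots in 4 of 4 sections. The median per spot at the edge and in the interior was 18032 and 33592 UMIs in CC075F1 replicate 1, 25171 and 46146 in CC075F1 replicate 2, 30120 and 34844 in CC080F1 replicate 1, and 26855 and 37003 in CC080F1 replicate 2. The mean log2 ratio was -0.61 ± 0.33 (SD, n = 4 sections), and a two-sided exact permutation test of sign flips gave the smallest p that 4 sections allow, which is above 0.05. Medians at step 1 were 14273, 17595, 27469 and 22323 UMIs, medians at step 4 were 27433, 37045, 31281 and 29376, and medians at step 10 were 31748, 47033, 34910 and 36620, in the same order of sections. Depth therefore went on rising beyond the edge in all 4 sections. The share of UMIs from mitochondrially encoded genes moved the other way, from 2.55% to 3.50% at step 1 to 1.72% to 2.40% at step 4. In CC080F1 replicate 1 the share then rose again, to 2.43% at step 10. With an edge of 5 steps its ratio of edge over interior in that section was 0.983. At the limit of 3 steps both measures go with the class in every section, and they stand beside each result below. Because edge and interior were summed per section, fewer cells of a type and less RNA per cell cannot be told apart.

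**Figure D2:**
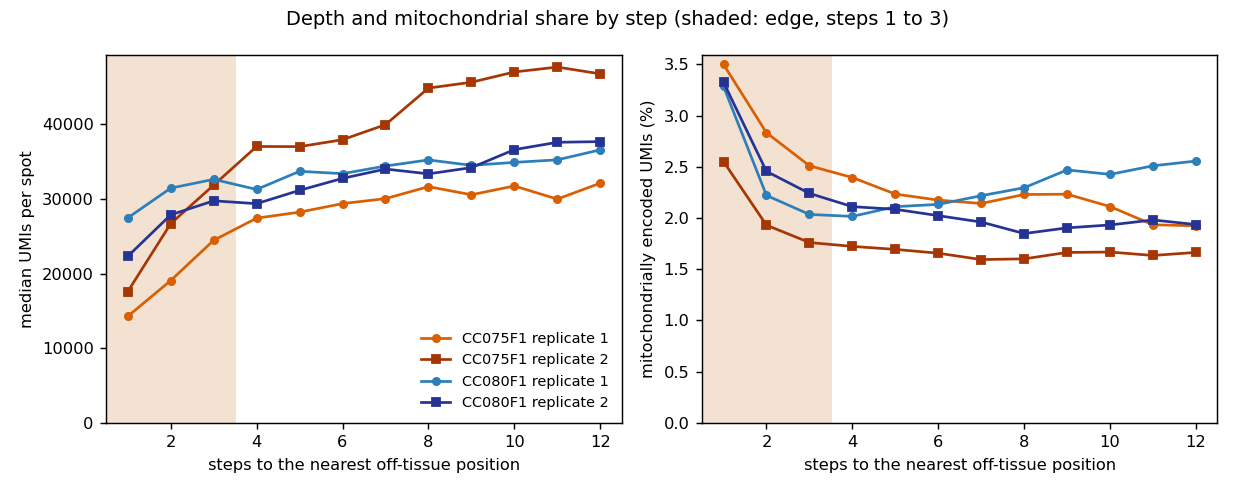
Median UMIs per spot (left) and percent of UMIs from mitochondrially encoded genes (right) against steps to the nearest off-tissue position, 1 line per section, with the edge shaded. Depth rose and the mitochondrial share fell from step 1 to step 3 in all 4 sections.

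For the comparison across genes, UMIs were summed over the edge and over the interior of each section, giving 8 sums of 11205265 to 127368960 UMIs over the genes tested, and edge was set against interior within section by edgeR's quasi-likelihood test. Levels are given in CPM (a gene's counts scaled to a common library total), adjusted by the trimmed mean of M-values (TMM), the fold change as the fitted log2 of edge over interior with its standard error (SE), and a gene was called at a Benjamini-Hochberg adjusted p under 0.05. Of 14345 genes tested, 125 were called (0.871%), 113 of them higher at the edge (0.788%) and 12 lower (0.0837%). All 125 had the same direction in all 4 sections, against 12.5% of all genes tested with a ratio above 0 in every section and 14.4% with a ratio below 0. The calls come from the same 4 pairs and so favour genes of 1 direction, which makes this no separate evidence. Changes upward were large and often of scarce transcripts. The 113 genes had a median log2 fold change of 1.57, 80 of them passed 1, and 73 had a mean under 10 CPM. The 12 lower genes fell by 0.60 or less on the log2 scale. Across all genes tested the median log2 fold change was -0.016. The shares above are the background for each count of list members given below.

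On simulated counts, 27 of 218 calls at this threshold were false, more than its nominal share. The calls in the data rested on few sections. Without CC075F1 replicate 1 the calls fell to 1, without CC080F1 replicate 2 there were 3, without CC075F1 replicate 2 there were 78 and without CC080F1 replicate 1 there were 854, and since every called gene had 1 direction in all 4 sections, these fits could hardly turn one. Among the 113 genes higher at the edge, the median log2 ratio was 0.94 for CC075F1 replicate 1 and 1.54 for its replicate 2. It was 0.66 for CC080F1 replicate 1 and 1.25 for its replicate 2. The bent strip of CC080F1 replicate 1 had the smallest ratio of the 4 sections in 74 of the 113 genes. These section ratios add 0.5 to each CPM value, which shrinks them for scarce genes. They are therefore not on the scale of the fitted median of 1.57. For the scarce Retnlg the fitted log2 fold change was 3.94, and the section ratios ran from 0.39 to 1.54. How far the order of the sections follows from level was not tested. Leaving out spots under 10000 UMIs kept 75 of the 123 calls that could be tested, and thinning every spot to 10000 UMIs kept 94 of 109.

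Tnc had the firmest difference. It encodes tenascin-C, a matrix glycoprotein of wounds and tumor stroma, and lies at chr4:63959785-64047015 on the minus strand of GRCm38. Its level at the edge was 17.8 and 58.8 CPM in CC075F1, replicate 1 first, and 10.9 and 18.7 CPM in CC080F1, against 2.35, 10.6, 2.13 and 4.32 CPM in the interior of the same sections, an order kept below wherever 4 values are given. Every section had more at its edge than in its own interior, and the highest interior lay just under the lowest edge. The log2 fold change was 2.45 (SE 0.12, adjusted p = 0.000624 in edgeR's quasi-likelihood test). It was the only gene called with any 1 of the 4 sections left out, at log2 fold changes from 2.31 to 2.57.

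The gradient of Tnc did not stop at the third step. In CC075F1 replicate 1 it fell from 26.6 CPM at step 1 through 12.2 at step 3 and 5.44 at steps 4 to 6 to 0.755 at 10 steps and over. CC080F1 replicate 1 fell from 17.8 CPM at step 1 to 1.64 CPM at 10 steps and over. Where the edge was taken as 5 steps the log2 fold change was 2.56, and against an interior of more than 6 steps it was 3.05.

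Genes of fibrous collagen and of its cross-linking followed Tnc. Lox, a lysyl oxidase that cross-links collagen and elastin, was at 7.90 and 41.0 CPM at the edges of CC075F1 and 5.48 and 36.0 CPM at those of CC080F1, against 1.88, 3.30, 1.58 and 3.15 CPM inside (log2 fold change 2.87, SE 0.32, adjusted p = 0.0160, edgeR). Its paralog Loxl1 rose by 2.12 (SE 0.28). Both chains of type I collagen, the main fibril of scar and stroma, rose, Col1a2 by 2.21 (SE 0.28, adjusted p = 0.0222, edgeR) and Col1a1 by 2.12 (SE 0.32, adjusted p = 0.0362). Col1a2 was at 154, 783, 60.3 and 390 CPM at the edge and 30.6, 131, 31.2 and 52.8 CPM inside. CC080F1 replicate 1 had the smallest difference. Col12a1, whose product decorates type I fibrils, rose by 2.14 (SE 0.18) and Postn, encoding periostin, by 1.96 (SE 0.25). Fbln2 (fibulin-2) rose by 1.75 and Aebp1, which encodes a collagen-binding protein, by 1.81.

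Not every gene of the same lists differed in this way. Of 10 collagens of the interstitial matrix, 3 were called, 8 had a positive fold change, and the median log2 fold change was 0.58. Col3a1, encoding the type III collagen that forms fibrils together with type I, was at 784, 844, 1499 and 1313 CPM at the edge and 1112, 397, 1821 and 1343 CPM inside. It was higher at the edge in 1 section only (log2 fold change 0.06, SE 0.23, adjusted p = 0.921, edgeR). Col6a1, a chain of the beaded type VI collagen, was below its interior level in all 4 sections at -0.20 (SE 0.055, adjusted p = 0.134), and Col5a1 stood at 0.07 (SE 0.13). Among 16 fibroblast markers 6 were called, all higher (Col1a1, Col1a2, Fbln2, Loxl1, Postn and Sfrp2), where 0.788% of all genes tested were called higher. Of the 16, 14 had a positive fold change, and the median was 1.60. Bgn, encoding the proteoglycan biglycan, was higher at the edge in all 4 sections and just missed the threshold (1.84, SE 0.34, adjusted p = 0.0574). The summed level of the 16 genes, to which Col3a1 and Dcn contribute most in the interiors, was 1780, 3779, 2445 and 3350 CPM at the edge and 1860, 1349, 2624 and 2466 CPM inside, so it was lower at the edge in replicate 1 of both strains. The 2 members with a negative fold change were Dcn and Pdgfra. Dcn, encoding the small proteoglycan decorin, was at -0.10 (SE 0.091, adjusted p = 0.605), and Pdgfra, a receptor by which fibroblasts are often recognised, was at -0.09 (SE 0.059, adjusted p = 0.446). Whether these collagens come from fibroblasts or from MC38 cells was not tested, since a spot holds both.

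**Figure D3:**
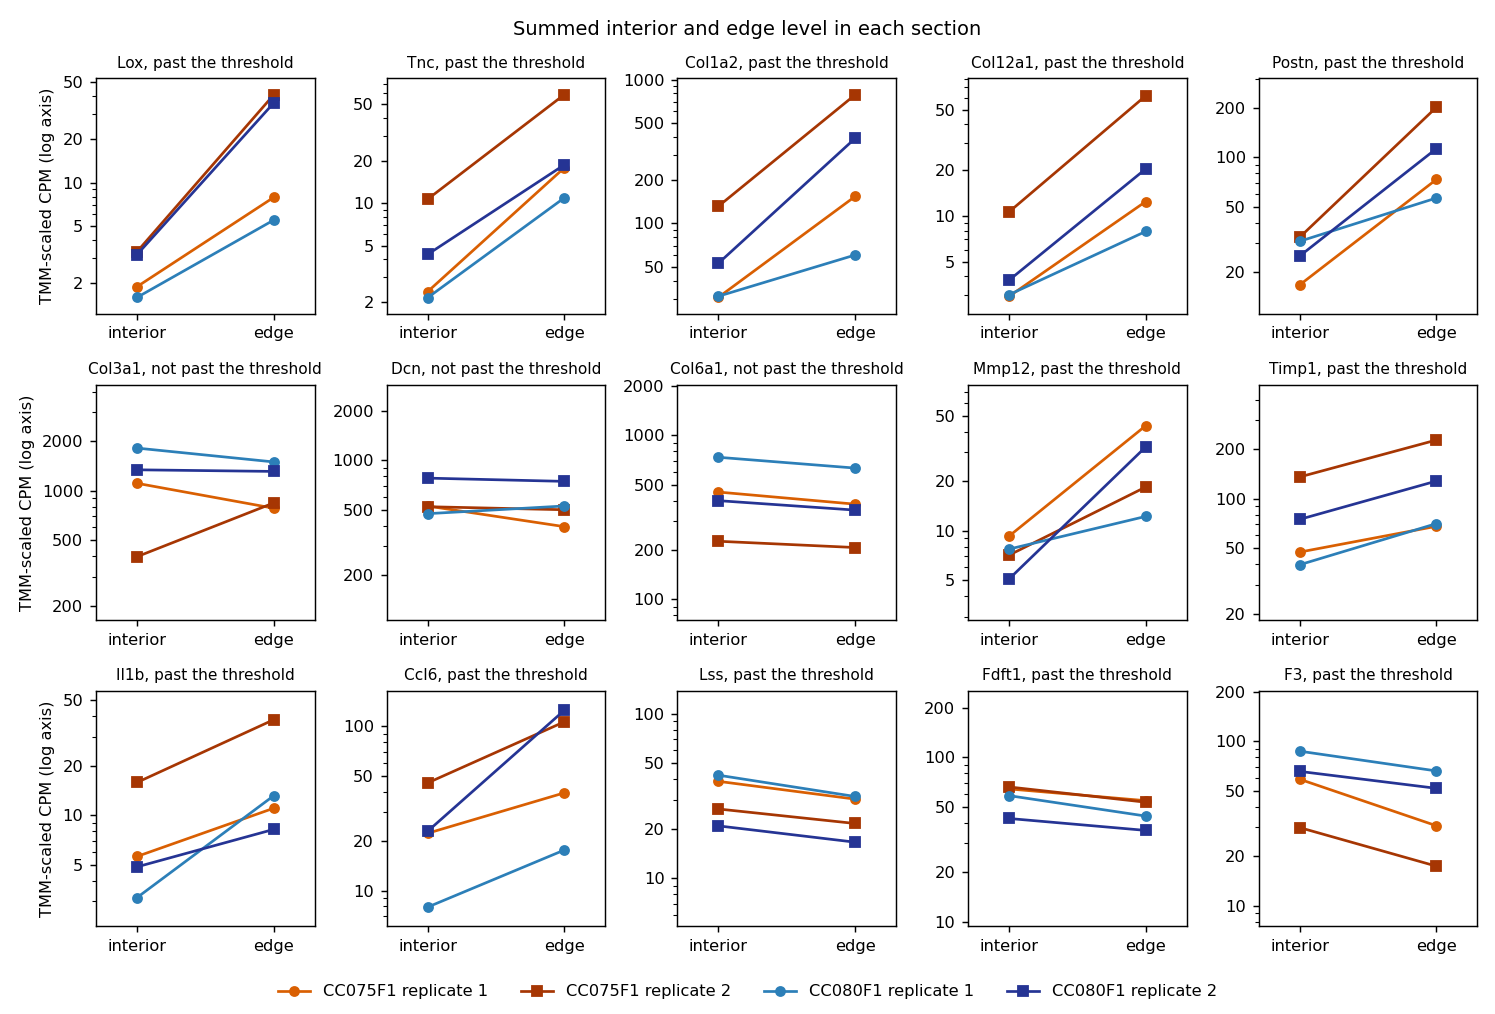
TMM-scaled CPM of 15 genes on log axes, each line joining the summed interior and the summed edge of 1 section. Tnc, Lox, Col1a2, Col12a1 and Postn rise from interior to edge in all 4 sections, Col3a1, Dcn and Col6a1 do not, and Lss, Fdft1 and F3 lie lower at the edge in all 4.

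Over the 19 alternatives the log2 fold change ranged from 1.97 to 2.71 for Col1a2 and from 2.57 to 3.36 for Lox. Their direction could hardly turn, since called genes had 1 direction in all 4 sections. Levels did not step abruptly at the 3-step limit. At step 3, just inside the limit, Col1a2 was at 104, 601, 30.3 and 282 CPM, and at steps 4 to 6, just outside it, at 67.5, 259, 28.5 and 161 CPM. In 3 sections the fall went on to 10 steps and over, where it was at 11.7 and 85.2 CPM in CC075F1 and 14.4 CPM in CC080F1 replicate 2. In CC080F1 replicate 1 it stopped falling and was at 36.6 CPM there. Lox turned upward in that section, with 1.01 CPM at steps 4 to 6 and 2.47 CPM at 10 steps and over.

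**Figure D4:**
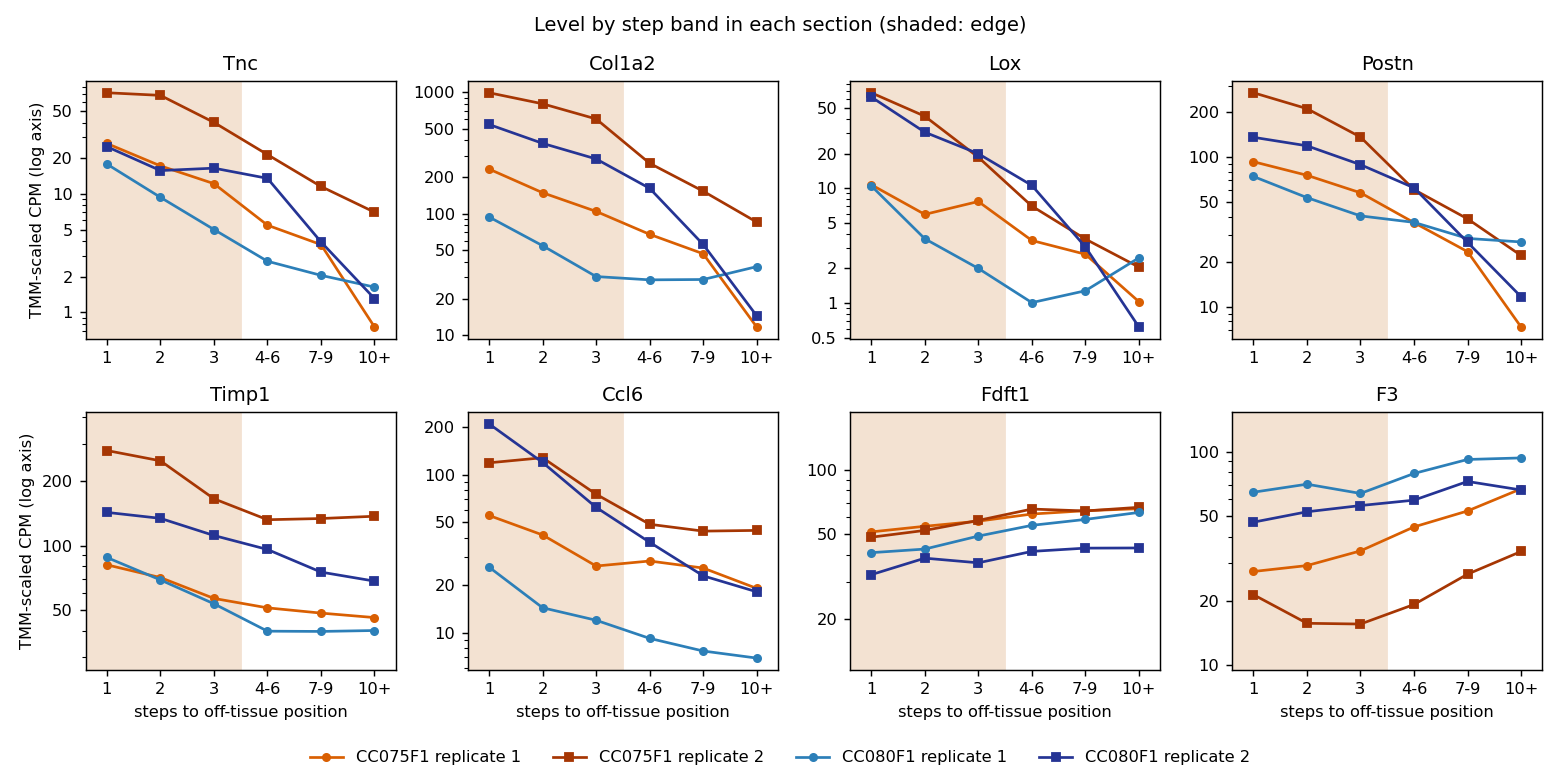
TMM-scaled CPM on log axes for 8 genes by band of steps to the nearest off-tissue position, 1 line per section, with the edge shaded. The matrix genes are lower at 10 steps and over than at step 1 in all 4 sections, with Col1a2 and Lox no longer falling beyond steps 4 to 6 in CC080F1 replicate 1, and Fdft1 and F3 are higher at 10 steps and over than at step 1.

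Low-level genes of activated stroma showed the same direction. Cthrc1 and Lrrc15 were singled out after their values were seen. Cthrc1, encoding a secreted collagen triple helix repeat protein, had 864 UMIs over all edge sums and 604 over the interiors that hold most of the spots (log2 fold change 2.75, SE 0.25, adjusted p = 0.00997, edgeR). Lrrc15, a membrane protein of myofibroblast-type tumor fibroblasts, had 477 and 521 UMIs (log2 fold change 2.19, SE 0.22, adjusted p = 0.00997). Sfrp2, a secreted Wnt modulator, had 671 UMIs at the edges and 290 in the interiors (3.34, SE 0.57, adjusted p = 0.0460).

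Matrix turnover genes were mixed. Of 10 proteases and inhibitors tested, 2 were called, both higher, and the median was 1.00. Timp1, an inhibitor of metalloproteinases, was at 67.9, 227, 70.5 and 128 CPM at the edge and 47.3, 136, 39.6 and 74.8 CPM inside (log2 fold change 0.72, SE 0.063, adjusted p = 0.00895, edgeR). Each edge lay above its own interior, although 3 edges lay below the interior level of CC075F1 replicate 2. Mmp12, the macrophage metalloelastase, rose by 1.75 (SE 0.29, adjusted p = 0.0451), from 9.27, 7.11, 7.73 and 5.08 CPM inside to 43.6, 18.5, 12.2 and 32.4 CPM at the edge. Mmp9, a gelatinase of leukocytes and osteoclasts, was lower at the edge in all 4 sections without passing the threshold (-0.26, SE 0.070, adjusted p = 0.124). Of the 10 genes of the basement membrane, the thin sheet under endothelium and epithelium, none was called (median 0.29), 4 of them being Col4a1 at 0.24, Hspg2 at 0.31, Lamb1 at 0.17 and Col4a2 at 0.16.

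TGF-beta is the classic inducer of this matrix. Of 12 genes of its response and its own pathway, 3 were called, all higher, among them Tnc and Thbs1 (thrombospondin-1, which can activate latent TGF-beta), which rose by 1.09 (SE 0.16, adjusted p = 0.0360, edgeR). The ligand Tgfb1 was at 58.3, 75.7, 61.2 and 61.5 CPM at the edge and 51.2, 63.7, 55.2 and 58.2 CPM inside, a log2 fold change of 0.17 (SE 0.051, adjusted p = 0.157). The receptors Tgfbr1 and Tgfbr2 were at -0.04 and -0.01. The median of the list was 0.24. Thbs4, another thrombospondin, had the highest fold of the called genes above 10 CPM (3.76, SE 0.63, adjusted p = 0.0451), but 1201 of its 1295 edge UMIs came from CC075F1 replicate 2, and without that section the log2 fold change was 2.41 and no longer called.

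Vessel wall genes were nearer to the threshold than past it. None of 14 endothelial markers was called, with a median of 0.55 and positive fold changes in 14 of 14. The section medians were 0.94, 0.83, 0.07 and 0.41, lowest in CC080F1 replicate 1. Pecam1, an adhesion molecule of endothelial junctions, was at 30.7, 34.6, 29.0 and 27.1 CPM at the edge and 14.5, 18.1, 24.8 and 18.3 CPM inside (0.69, SE 0.13, adjusted p = 0.0574, edgeR). Of 10 pericyte and smooth muscle markers 2 were called, Acta2 (smooth muscle actin, also made by myofibroblasts) at 1.08 (SE 0.10, adjusted p = 0.00997) and Tagln (transgelin) at 1.82 (SE 0.26, adjusted p = 0.0329). Acta2 was at 16.5, 33.9, 15.9 and 31.8 CPM at the edge and 8.69, 15.2, 9.28 and 11.9 CPM inside, while the pericyte gene Rgs5 was at 0.59 (SE 0.19, adjusted p = 0.178). Lyve1, a hyaluronan receptor of lymphatic endothelium and of tissue-resident macrophages, rose by 1.98 (SE 0.20, adjusted p = 0.0102). Its 371 edge UMIs included 249 from CC080F1 replicate 2. Prox1, which defines lymphatic endothelium, was too low to be tested.

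Among leukocytes, genes of neutrophils and mast cells were called in the largest share of their lists, and those of the general macrophage list and of T, NK and B cells not at all. Of 8 neutrophil markers 4 were called, all higher, where 0.788% of all genes tested were called higher. The median was 1.32. Il1b, the inflammatory cytokine, was at 11.0, 38.2, 13.2 and 8.21 CPM at the edge and 5.61, 15.8, 3.15 and 4.85 CPM inside (1.28, SE 0.19, adjusted p = 0.0349, edgeR), and monocytes also make it. The more specific calprotectin subunits were scarce. S100a8 had 255 UMIs over the edges and 311 over the much larger interiors, which is 2.34, 4.67, 1.93 and 4.97 CPM against 0.565, 0.780, 0.785 and 1.38 CPM (1.94, SE 0.23, adjusted p = 0.0204), and S100a9 rose by 2.15 (SE 0.31). Retnlg, a resistin-like gene of neutrophils, was called on 35 edge and 10 interior UMIs. Csf3r and Cxcr2, receptors that neutrophils carry, were at 0.25 (adjusted p = 0.519) and 0.54 (adjusted p = 0.430).

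Of 5 mast cell genes tested 3 were called, where 0.788% of all genes tested were called higher. They were the proteases Mcpt4 (2.13, SE 0.36), Tpsb2 (1.76, SE 0.29) and Cma1 (1.49, SE 0.23). All 5 had a ratio above 0 in all 4 sections, against 12.5% of all genes tested. The counts were small. Mcpt4 had 7, 49, 45 and 15 UMIs at the edges and 15, 40, 45 and 10 in the interiors. Mast cells reside in skin and connective tissue.

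The general macrophage list did not separate the classes. None of its 12 genes was called and its median was -0.01. Lyz2 (lysozyme) was at 1967, 2596, 1045 and 1417 CPM at the edge and 2166, 2380, 1038 and 1424 CPM inside, a log2 fold change of 0.00 to 2 decimals (SE 0.071, adjusted p = 0.994, edgeR). Spp1-type macrophage genes had a median of 0.18 with none of 8 called, and resident-type genes 0.41 with 1 of 12 (Lyve1). Of 7 monocyte genes only Chil3, a chitinase-like lectin, was called (1.24, SE 0.14, adjusted p = 0.0168), while Ly6c2, the classical monocyte marker, was at 0.84 (SE 0.16, adjusted p = 0.0639). Marco, a scavenger receptor singled out after its values were seen, rose by 2.32 (SE 0.39, adjusted p = 0.0452) with 179 of its 235 edge UMIs in CC080F1 replicate 2.

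The lists of lymphocyte, interferon and antigen presentation genes gave no calls. Outside them, the interferon-inducible Ifi205 (0.81, SE 0.13, adjusted p = 0.0442, edgeR) and Ifitm1 (0.58, SE 0.095, adjusted p = 0.0421) and Tnfrsf18, the costimulatory receptor GITR of T cells, (0.71, SE 0.12, adjusted p = 0.0472) were called, and they were picked after their values were seen. The study contrasted these strains by Cxcl9 and Cd8a, and it marks leukocytes by Ptprc and MC38 cells by Shisal2b. Ptprc was at 43.7, 54.2, 27.5 and 35.3 CPM at the edge and between 30.0 and 39.8 CPM inside (0.18, SE 0.086, adjusted p = 0.305, edgeR). Cxcl9, a T cell attractant induced by IFN-gamma, was at 433, 508, 35.8 and 108 CPM at the edge and 271, 403, 45.6 and 113 CPM inside, higher at the edge in both CC075F1 sections and lower in both CC080F1 sections (0.15, SE 0.15, adjusted p = 0.610). Its strain difference in the ratio was not called. Cd8a, which marks cytotoxic T cells, was at 15.1 and 10.0 CPM at the edges of CC075F1 and at 2.00 and 1.19 CPM at those of CC080F1 (0.17, SE 0.12, adjusted p = 0.458). For both genes, both CC075F1 sections were above both CC080F1 sections at the edge and in the interior. Medians were 0.32 for 17 T and NK cell genes, 0.28 for 17 genes of the IFN-gamma signature, 0.31 for 7 of MHC class II presentation, -0.03 for 9 of MHC class I presentation and -0.15 for 11 type I interferon genes, with none called in any of these lists. CC080F1 replicate 1 stood apart, with medians of -0.01, -0.15 and -0.23 for the T and NK cell, IFN-gamma and class II lists. The other sections had 0.31 to 0.34, 0.31 to 0.50 and 0.45 to 0.60. Section medians of the class I and type I interferon lists lay between -0.24 and 0.12. Shisal2b was at 102, 284, 111 and 223 CPM at the edge and 141, 362, 105 and 259 CPM inside (-0.24, SE 0.088, adjusted p = 0.220), and of the other MC38 list genes only the near-absent Krt7 and Epcam could be tested.

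Dendritic cell lists were split. Itgax, the integrin CD11c, was the only one of 9 conventional dendritic cell genes called (0.60, SE 0.10, adjusted p = 0.0462, edgeR), and macrophages express it too. None of 6 migratory dendritic cell genes was called, although Ccl22, a chemokine for regulatory T cells, was at 1.57 (SE 0.41, adjusted p = 0.117) and Ccr7, the receptor for lymph node homing, at 1.40 (SE 0.33, adjusted p = 0.0915).

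Of 18 chemokines 4 were called, all higher at the edge, where 0.788% of all genes tested were called higher. The list's median was 0.30. Ccl6 was at 39.3, 106, 17.7 and 125 CPM at the edge and 22.3, 45.2, 7.93 and 22.9 CPM inside (1.44, SE 0.23, adjusted p = 0.0421, edgeR), and the related myeloid chemokine Ccl9 rose by 0.50 (SE 0.076, adjusted p = 0.0378). Cxcl12, a stromal chemokine that retains CXCR4-bearing cells, rose by 1.75 (SE 0.27, adjusted p = 0.0382), and Ccl11, the eosinophil attractant eotaxin, by 2.19 (SE 0.25, adjusted p = 0.0168) on 207 edge UMIs. Ccl5, an attractant of T cells and monocytes, was below its interior level in all 4 sections, though barely in CC080F1 replicate 1 (-0.39, SE 0.11, adjusted p = 0.141). Of 12 complement genes 2 were called, Serping1, the C1 inhibitor, at 1.57 (SE 0.26, adjusted p = 0.0456) and Cfp, properdin, at 0.55 (SE 0.059, adjusted p = 0.0132). The 3 chains of C1q, made by macrophages, lay between -0.07 and 0.10.

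The 12 genes that were lower at the edge had small and even differences. Fdft1 and Lss, which encode squalene synthase and lanosterol synthase, were 2 of them, and Msmo1, a sterol demethylation enzyme outside the fixed list, was another. Lss was at 30.3, 21.5, 31.4 and 16.6 CPM at the edge and 38.9, 26.4, 42.4 and 20.8 CPM inside (-0.36, SE 0.051, adjusted p = 0.0328, edgeR). Fdft1 was at 54.5, 53.3, 43.9 and 35.9 CPM at the edge and 64.2, 66.0, 58.5 and 42.4 CPM inside (-0.30, SE 0.052, adjusted p = 0.0472). Each edge lay under its own interior, by a similar ratio in all 4 sections, while the levels of the sections overlapped. Over the cholesterol synthesis list, 2 of 10 genes were called, 10 of 10 had a ratio below 0 in all 4 sections against 14.4% of all genes tested, and the medians of the 4 sections ran only from -0.19 to -0.30. The summed level of the 10 genes rose inward from 727, 653, 673 and 449 CPM at step 1 to 854, 822, 891 and 553 CPM at 10 steps and over. With library size in place of TMM the list's median was -0.18, and only 2 genes in all were called lower.

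The other 9 lower genes came from several functions. F3, tissue factor, the membrane starter of coagulation, was at 30.6, 17.4, 66.0 and 51.7 CPM at the edge and 58.8, 29.9, 87.1 and 65.6 CPM inside (-0.60, SE 0.10, adjusted p = 0.0456, edgeR). Gas1, a membrane protein of growth arrest and Hedgehog signalling, was at -0.43 (SE 0.063), and the guidance receptors Epha7 and Robo2 were at -0.48 (SE 0.067) and -0.43 (SE 0.067). Hmgn2, a nucleosome-binding protein, was at -0.36 (SE 0.056) and the kinetochore genes Itgb3bp and Cenpm at -0.34 (SE 0.055) and -0.30 (SE 0.051). Rida and Nudt2 were at -0.38 and -0.30. Of 18 cell cycle genes none was called and only 1 had a positive fold change, with a median of -0.09. The section medians of that list were split, at 0.06, -0.21, 0.01 and -0.20.

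Metabolic lists gave no calls. Medians were -0.06 for 14 hypoxia genes, -0.10 for 13 glycolysis genes, -0.09 for 15 nuclear genes of oxidative phosphorylation, -0.15 for 15 ribosomal protein genes and -0.10 for 10 genes of the unfolded protein and amino acid stress response. Sections differed in sign, with medians of -0.31, -0.50, 0.08 and 0.57 for hypoxia and -0.32, -0.35, 0.06 and 0.30 for glycolysis. Those of oxidative phosphorylation were below 0 in all 4 sections. Angptl4, a lipase inhibitor outside these lists, was called at 1.17 (SE 0.14, adjusted p = 0.0219, edgeR), with 12.3, 25.9, 14.6 and 23.7 CPM at the edge and 6.08, 8.58, 9.21 and 9.26 CPM inside. Of 11 immediate early genes 1 was called, the transcription factor Egr1 (0.74, SE 0.10, adjusted p = 0.0323), while Fos was at 0.32 (SE 0.085, adjusted p = 0.117) and Jun at 0.02 (SE 0.059, adjusted p = 0.858).

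**Figure D5:**
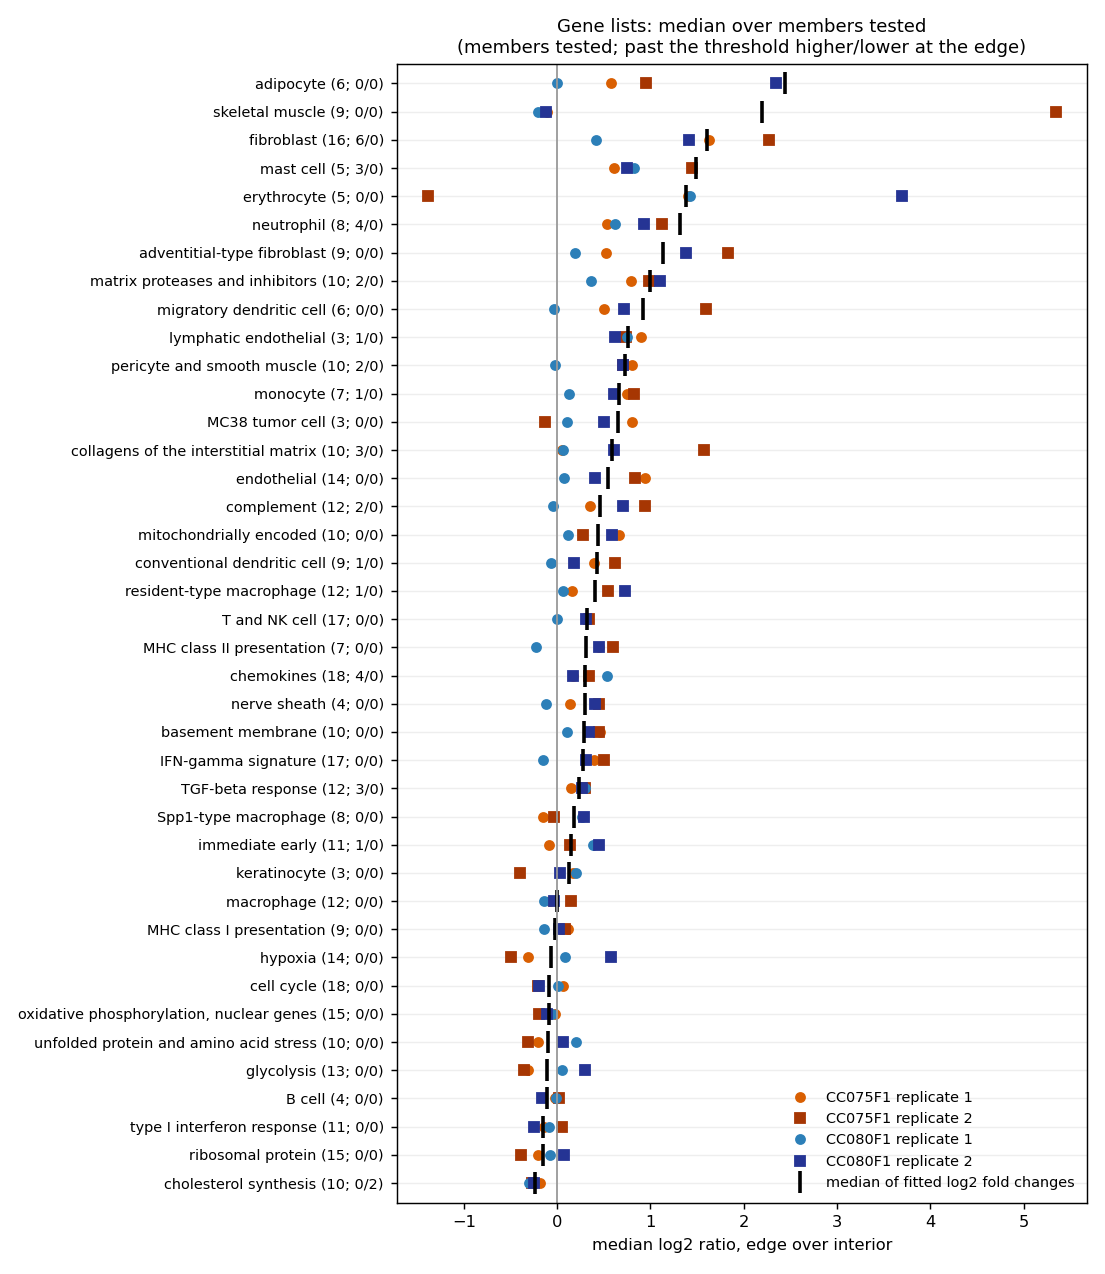
Median log2 ratio of edge over interior of 40 gene lists in each section (points) and the median of the fitted log2 fold changes (black bars), with the members tested and the numbers called higher and lower in brackets. Fibroblast, neutrophil and mast cell lists lie to the right in all 4 sections, cholesterol synthesis lies to the left in all 4, and the skeletal muscle list is far to the right in CC075F1 replicate 2 alone.

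Mitochondrially encoded RNA in sum, and the nuclear RNAs Malat1 and Neat1, were higher at the edge. Whether RNA quality differed there was not tested. All 10 mitochondrially encoded genes had a positive fold change (median 0.44), none was called, and their summed level was 26079, 24774, 21783 and 25437 CPM at the edge against 18823, 23447, 20096 and 18193 CPM inside. In CC075F1 replicate 2 and CC080F1 replicate 1 it fell from 29600 and 28271 CPM at step 1 to 22377 and 17596 CPM at step 3. At 10 steps and over it was at 24027 and 22545 CPM in these sections. The nuclear long noncoding RNAs Malat1 and Neat1, singled out after their values were seen, were called at 1.12 (SE 0.11, adjusted p = 0.0102, edgeR) and 0.56 (SE 0.064, adjusted p = 0.0168). Malat1 was at 96.7, 73.3, 64.7 and 94.7 CPM at the edge and 37.9, 29.4, 41.7 and 41.2 CPM inside. Their part in the differences above was not tested. Thinning every spot to 10000 UMIs evens depth alone and leaves the make-up of a spot as it was, so it cannot address RNA quality. After it, Tnc and Col1a2 were at log2 fold changes of 2.35 and 2.29.

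Markers of neighbouring tissue were unevenly spread over the edges. Spots with over 1% of their UMIs in skeletal muscle, keratinocyte and fat genes numbered 35 at the edge of CC075F1 replicate 2 and 2 at the edge of CC080F1 replicate 2, with none in any interior. The summed level of 9 skeletal muscle genes was 1476 CPM at the edge of CC075F1 replicate 2 and 6.91 to 21.6 CPM at the other edges, against 8.42 to 29.1 CPM in the interiors. Fat genes were higher at more than 1 edge. The 8 listed adipocyte genes summed to 64.4, 125, 62.1 and 134 CPM at the edge and 22.7, 36.1, 57.9 and 33.9 CPM inside, and in CC080F1 replicate 2 they fell from 226 CPM at step 1 to 21.5 CPM at 10 steps and over. All 6 that could be tested had a positive fold change (median 2.44), and Fabp4, a fatty acid carrier that capillary endothelium also expresses, made up the largest part of each of these sums. Neither the muscle nor the fat list had a member called, nor the keratinocyte list, of which Krt5, Krt1 and Krt15 were too low to be tested. Without those spots 261 genes were called, 230 higher and 31 lower, and all 125 genes were among them. Blood was uneven. The 5 hemoglobin and red cell genes were higher at the edge in 3 sections and lower in CC075F1 replicate 2 (248 CPM at the edge, 587 CPM inside), and none was called.

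The edge ratio was also compared between strains. A difference between CC075F1 and CC080F1 was called for 12 genes (0.0837%), 10 of them with the higher ratio in CC075F1, and only Thbs4 was also among the 125. Of the 12, 7 (Acta1, Atp2a1, Myh1, Myh4, Myl1, Pvalb and Xirp2) are genes of skeletal muscle, and they followed the muscle at the edge of CC075F1 replicate 2. Acta1, skeletal actin, was at 654 CPM there and at 0, 5.01 and 0.378 CPM at the other edges. Lum, encoding the fibril-binding proteoglycan lumican, was at 16.2 and 56.8 CPM at the edges of CC075F1 against 3.37 and 7.54 CPM inside, and at 7.42 and 21.9 CPM at the edges of CC080F1 against 5.51 and 24.0 CPM inside. The log2 ratio differed by 2.52 (SE 0.24, adjusted p = 0.00643, edgeR), and without CC075F1 replicate 2 by 2.15 (adjusted p = 0.0571). Ccn1, a matricellular protein induced by mechanical tension, was at 64.6 and 74.0 CPM at the edges of CC080F1 against 22.3 and 27.5 CPM inside, and at 22.2 and 46.7 against 18.4 and 49.0 CPM in CC075F1 (difference -1.40, SE 0.13, adjusted p = 0.00643). Clec4d, a C-type lectin receptor of myeloid cells, differed in the same direction (-1.33, SE 0.14, adjusted p = 0.0113). Without CC075F1 replicate 2, 2 genes were called in this comparison.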

How the data were processed

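Visium libraries of 4 sections were analysed, 2 per strain. The authors aligned the reads and counted UMIs per gene and spot with Space Ranger on the 10x Genomics mouse reference of build GRCm38 (mm10), and the deposited tables hold those raw counts for spots under tissue, with no normalization, beside the grid position of every spot. All 32285 genes were read. Gene positions came from GENCODE annotation of the same build, an earlier release than the authors used.

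Steps to the nearest off-tissue position were counted over the 6 neighbours of the grid, which has 4992 positions. Within each section UMIs were summed over edge spots (3 steps or fewer) and over interior spots. After filterByExpr, edgeR 4.0.16 under R 4.3.3 was run in its quasi-likelihood mode on TMM factors, with terms for section and class, and, for the strain difference, a class by strain term, with Benjamini-Hochberg adjustment over all genes tested and a threshold of 0.05. Section ratios are log2 of TMM-scaled CPM plus 0.5. Sums hold 11205265 to 127368960 UMIs of tested genes, so 3 UMIs, the limit that a count of 0 allows, equal 0.268 CPM at most at an edge, for counting error alone. Spots are not replicates, and no doublet caller was run. The fit was tested on simulated counts, where false calls exceeded the nominal share when the spread differed between genes. They were 27 of 218 calls for edge against interior and 36 of 201 calls for the strain difference.

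Named genes were the 15 largest changes each way among called genes above 10 CPM with 1 direction in all sections, up to 4 members of each of 40 lists (called first, otherwise by level), the study's markers, and up to 5 each way by strain difference. Other genes named are said to be chosen later or belong to a list. A called gene of the TGF-beta list is not reported here. Members and lists were chosen with earlier results of these data known. Alternatives were library size, DESeq2 1.42.0 size factors and Wald test, limma-voom (limma 3.58.1), no filter, other edge and interior limits, the outer boundary alone, the grid rim as off tissue, spots under 10000 UMIs or with over 1% skin, muscle and fat UMIs left out, thinning, no pairing, a replicate block and each section left out.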

Additional observations from a re-analysis of the deposited data

Results flagged for a closer look

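The log2 ratio of edge over interior differed between CC075F1 and CC080F1 by edgeR's interaction term for 12 genes at an adjusted p under 0.05. CC075F1 minus CC080F1 was 6.11 for Acta1, 5.62 for Atp2a1, 6.47 for Myh1, 7.81 for Myh4, 5.25 for Myl1, 5.68 for Pvalb and 7.74 for Xirp2, all muscle genes found almost wholly at the edge of CC075F1 replicate 2. It was 3.20 for Thbs4, 2.52 for Lum and 0.921 for Iigp1, an interferon-inducible GTPase, and -1.40 for Ccn1 and -1.33 for Clec4d. With 2 sections per strain, the strain cannot be told apart from the tumor.

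The medians of 4 gene lists out of 40 lay below 0 in both CC075F1 sections and on the other side of 0 in both CC080F1 sections. The search took opposite signs in either direction, and how many of the 40 lists would give them by chance was not worked out. The count alone is therefore no evidence of a strain pattern. This difference between strains was not tested over the lists, and no member of them was called for it. The hypoxia list, of genes induced when oxygen is low, had the widest gap (-0.734), CC075F1 having medians of -0.31 and -0.50 where CC080F1 had 0.08 and 0.57. Its summed level rose inward in CC075F1, from 422 and 604 CPM at step 1 to 749 and 1098 CPM at 10 steps and over, and fell inward in CC080F1 replicate 2, from 1020 to 599 CPM. CC080F1 replicate 1 was at 589 and 580 CPM. The other gaps were -0.514 for glycolysis, -0.390 for the unfolded protein and amino acid stress list and -0.371 for the Spp1-type macrophage list.

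In 4 of 111 sets of 4 section values, 1 section lay far from the other 3, where chance gives about 1 in 20. CC075F1 replicate 2 had a median log2 ratio of 5.35 in the skeletal muscle list. CC080F1 replicate 1 had -0.0231 in the pericyte and smooth muscle list and -0.00724 in the T and NK cell list, against 0.70 to 0.81 and 0.31 to 0.34 elsewhere. For Gas1, CC075F1 replicate 1 was at -0.631.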

How the results depend on the processing

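The numbers of calls depended strongly on the choices made. None of the 125 genes changed direction in any of the 19 alternatives that tested it, which says little, since all 125 had 1 direction in all 4 sections to begin with. Against 125 calls, 113 higher and 12 lower, library size gave 130, 128 higher and 2 lower, and DESeq2 size factors gave 129, 113 higher and 16 lower. The DESeq2 Wald test gave 596 (438 higher, 158 lower), limma-voom 258 (238, 20) and no filter on low counts 683 (551, 132). An edge of 2 steps gave 202 (184, 18), an edge of 5 steps 39 (38, 1), the outer boundary alone 266 (239, 27), and the grid rim as off tissue 310 (275, 35). Leaving out spots under 10000 UMIs gave 75 (69, 6), leaving out spots with skin, muscle or fat 261 (230, 31) and thinning 258 (219, 39). An interior of more than 6 steps gave 114 (102, 12). With 1 section left out, calls ranged from 1 to 854, those higher from 1 to 712 and those lower from 0 to 142. The cause of these shifts was not tested.

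The replicate block (strain and replicate number in place of section) left 16 calls, 16 higher and 0 lower. The numbers pair nothing that the labels state, and the deviations of same-numbered sections correlated at 0.265 for levels and 0.289 for edge ratios over 2 pairs. With no replicate block or section term, 0 genes were called by edgeR, none higher and 0 lower, with 635 at an unadjusted p under 0.05, against 2614 in the paired fit.

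The strain difference gave 12 calls and 19 with library size, 532 with no filter on low counts, 69 by DESeq2's Wald test, 23 with an edge of 2 steps and 6 with an interior of more than 6 steps. It ranged from 2 (without CC075F1 replicate 2) to 327 with 1 section left out. With 1 section left out, the strain difference of Acta1 ranged from 6.24 down to -5.66, the last without CC075F1 replicate 2 (adjusted p = 0.998 in edgeR). Depth per spot kept its direction in 11 alternatives, at mean log2 ratios from -0.74 to -0.48. That says little, since the ratio was below 0 in all 4 sections to begin with. Low counts limit what can be read for genes under about 1 CPM, such as Retnlg and Mcpt4.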

Other observations

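Several called genes belong to groups that no list covered, and they were singled out after their values were seen. The matrix regulators Adamts2, which trims procollagen, and Ctsk, the collagen-degrading cathepsin K, were higher at the edge, as was Ccn2, a matricellular growth factor (log2 fold change 1.51, SE 0.24, adjusted p = 0.0421 in edgeR). Ccn2 was at 4.92 and 21.9 CPM at the edges of CC075F1 and 10.2 and 14.1 CPM at those of CC080F1, against 3.01, 4.02, 4.59 and 4.81 CPM inside. Among vessel genes, Apln, the endothelial tip cell peptide apelin, was at 18.5 to 30.2 CPM at the edges and 9.31 to 16.5 CPM inside (0.81, SE 0.087, adjusted p = 0.0132), although no gene of the endothelial list was called. Of the 125 genes, 33 belonged to 1 or more lists and 92 to none.

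Immunoglobulin was uneven at the edge. Igkc, the kappa light chain of plasma cells, was at 134 CPM at the edge of CC075F1 replicate 2 and 3.53 CPM inside, and at 2.26, 0.412 and 0.864 CPM at the other edges. It was not called (2.94, SE 0.95, adjusted p = 0.176 in edgeR).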
